A study of Homo sapiens with 8 samples.

Results

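TRPS1 encodes a GATA-type zinc finger protein that acts as a transcriptional repressor, is used as a marker of breast epithelium and breast carcinoma, and causes tricho-rhino-phalangeal syndrome when mutated. The gene was studied here in the RNA polymerase II (RNAPII) ChIP-seq profiles of MDA-MB-453, a long-established cell line from a human breast carcinoma. It is 1 of 19794 annotated protein-coding genes, counted with or without a peak, and 1 of 624 whose longest isoform is 200 to 300 kb long. TRPS1 was chosen by name from its measured values in the same vehicle against CDDD11-8 contrast, so its coverage and its change with treatment are given as a description, without a test.

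Cells received vehicle or CDDD11-8, an inhibitor of the kinase CDK9 that the labels call D11-8, at 600 nM for 4 h. Each treatment had 2 ChIP libraries from independent passages of the same line, and all were made with an antibody against RNAPII. Each ChIP library was compared by the authors with a paired chromatin input, and the 4 input libraries were not analysed here. A single cell line without animals or donors limits the comparison to these cultures.

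CDK9 is the kinase of P-TEFb, which releases RNAPII that has paused shortly after the transcription start site (TSS) into productive elongation. RNAPII that is already past the pause travels on to the transcription end site (TES), and on a gene as long as TRPS1 this takes far longer than on an average gene. Beyond the TES, RNAPII continues for some distance until it is released from the template, and this stretch is called the termination zone.

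On GRCh37 (hg19), the longest annotated TRPS1 isoform, TRPS1-203, occupies positions 116420724 to 116681202 of chromosome 8 and is read from the minus strand. It is 260.479 kb long and has 7 exons. The exons together span 9.964 kb and the 6 introns 250.515 kb, of which intron 5 alone takes 168.547 kb. The nearest protein-coding gene on the TSS side is EIF3H, which encodes a subunit of a translation initiation factor, 975.869 kb away. On the TES side it is CSMD3, at 1971.56 kb. The only other annotated gene within 50 kb is TRPS1-AS1, a non-coding RNA on the opposite strand inside the TRPS1 gene, at 116521829 to 116523552. ChIP-seq has no strand, so RNAPII on TRPS1 and on TRPS1-AS1 cannot be told apart there.

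The peak lists give regions, each with at least 1 summit, and for each summit a pileup (fragments overlapping at that base) and a fold enrichment (pileup over the local background). Vehicle replicates 1 and 2 held 78306 and 57493 regions, and CDDD11-8 replicates 1 and 2 held 25897 and 21842. The lists carry no read totals, so depth is unknown. Pileups moved in steps of 1 in both vehicle lists, of 0.743 in CDDD11-8 replicate 1 and of 0.962 in CDDD11-8 replicate 2, so fold enrichment is set side by side only within a library. Of 8 luminal markers, 8 had a promoter peak (a region within 300 bp of the TSS) in all 4 libraries. Of 6 basal or mesenchymal markers, 5 had none in any library and ZEB1 had it in all 4. Only the TSS of the longest isoform was looked at. TP63, among the 5 without a peak, had 2.96% and 2.95% of its gene body (defined below) covered with vehicle. With CDDD11-8 it had 0.225% and 0.434%. ESR1, PGR and the leucocyte marker PTPRC had no promoter peak in any library. Over all 19794 protein-coding genes, 9701 had a promoter peak in all 4 libraries and 8744 had none in any.

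With vehicle, RNAPII covered nearly the whole of TRPS1, and with CDDD11-8 it covered the 5′ end and a stretch past the TES with almost nothing between them. Gene body coverage is the percent of bases inside a listed region, counted from 300 bp beyond the TSS and closing 3 kb past the TES, a length of 263179 bp for TRPS1. It was 99.7% in vehicle replicate 1, 98.5% in vehicle replicate 2, 4.63% in CDDD11-8 replicate 1 and 4.75% in CDDD11-8 replicate 2. The groups did not overlap, and the libraries of each group lay close together. The vehicle mean was 99.1% ± 0.838 (SD, n = 2) and the CDDD11-8 mean 4.69% ± 0.0876 (SD, n = 2), which gives a difference of -94.4 percentage points. In bases, 708 and 3827 bp of the gene body were left uncovered with vehicle, and 12177 and 12503 bp were covered with CDDD11-8. No p-value is given, because TRPS1 was chosen on this contrast and the difference is a description. With 2 against 2 libraries an exact two-sided permutation test could not go below 0.33.

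**Figure D1:**
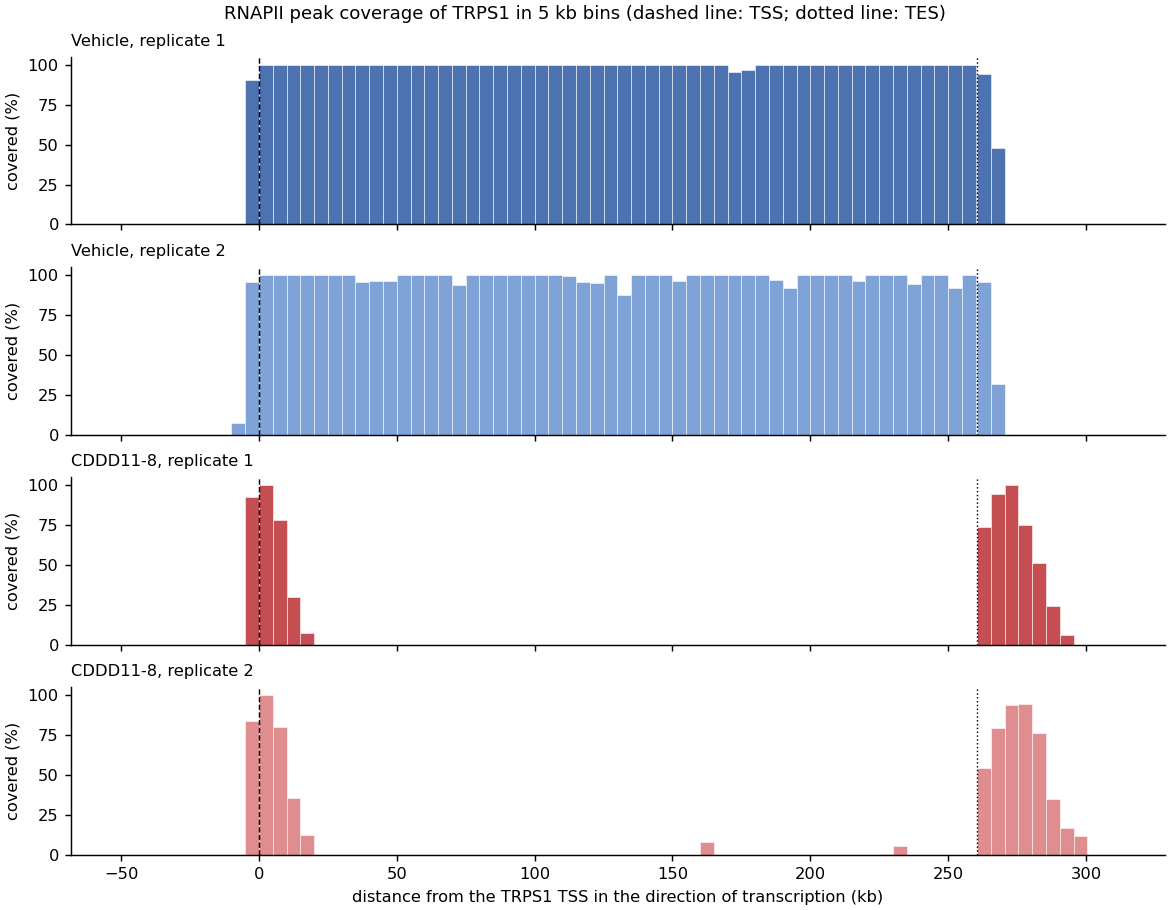
Percent of each 5 kb bin inside a listed RNAPII region (y axis) against the distance from the TRPS1 TSS in kb, in the direction of transcription (x axis), with 1 panel per library, a dashed line at the TSS and a dotted line at the TES. All 53 gene bins hold coverage in both vehicle libraries, whereas 49 and 46 of them are empty in the CDDD11-8 libraries, in which a further block of coverage stands after the TES.

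The vehicle regions on TRPS1 were among the longest of the lists. In vehicle replicate 1, 4 regions made up the gene body, and the longest was 174.854 kb with 273 summits, rank 1 by length of all 78306 regions. In vehicle replicate 2, the body was split into 14 regions, and the longest was 42.495 kb with 57 summits, rank 13 of its list. The 13 gaps between them were at most 636 bp long, and the 3 gaps in vehicle replicate 1 at most 319 bp. Of the regions of at least 20 kb, TRPS1 held 2 of 277 in vehicle replicate 1 and 5 of 196 in vehicle replicate 2, and 0 of 137 and 0 of 60 in the CDDD11-8 libraries.

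In 5 kb bins from TSS to TES, coverage with vehicle was even. Of the 52 bins of full length, 50 were wholly covered in vehicle replicate 1 and 37 in vehicle replicate 2, and the lowest of them stood at 95.4% and 87.3%. The short last bin before the TES was covered to 93.9% and 100% and held 1 summit in each. The bins of full length held 5 to 10 summits each in vehicle replicate 1 and 5 to 9 in vehicle replicate 2. Within each vehicle library, fold enrichment was higher in the earlier part of the gene than in the later part. In 4 equal parts of the gene from 5′ to 3′, the median fold enrichment in vehicle replicate 1 was 7.88, 7.23, 5.998 and 6.02. In vehicle replicate 2 it was 9.18, 8.26, 7.20 and 7.11. The number of summits in each of the 4 ranged from 101 to 106 in replicate 1 and from 89 to 92 in replicate 2, so summit number did not fall along the gene as the enrichment did.

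Introns and exons were covered alike with vehicle. The introns held 392 and 345 summits in vehicle replicates 1 and 2, and 18 in each CDDD11-8 library. The exons held 17 and 16 summits with vehicle, and 1 in each CDDD11-8 library, which was in exon 1. Intron 1, 44.786 kb long, was covered to 100% and 99.1% with vehicle and still to 23.1% and 24.5% with CDDD11-8. Intron 5 was covered to 99.8% and 98.6% with vehicle, and to 0% and 0.415% with CDDD11-8.

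Within its own library, RNAPII on TRPS1 was strong with vehicle and of middling strength with CDDD11-8. The gene body held 411, 363, 20 and 19 summits in vehicle replicates 1 and 2 and CDDD11-8 replicates 1 and 2, or 15.6, 13.8, 0.760 and 0.722 per 10 kb. Their median fold enrichment was 6.77 and 7.94 in the vehicle libraries, at the 90.4th and 91.0th percentile of all summits of the list. It was 4.32 and 4.22 in the CDDD11-8 libraries, at the 45.4th and 46.0th percentile. The median local background implied by pileup and fold enrichment was lower at TRPS1 than over the whole list in each library, at 4.53 against 5.60 and 3.03 against 6.24 with vehicle, and 4.00 against 4.999 and 3.11 against 7.25 with CDDD11-8. It stood at 0.970, 0.715, 0.972 and 0.518 times the value in the bodies of the other genes of 200 to 300 kb, and its part in the coverage was not tested. In vehicle replicate 2 and CDDD11-8 replicate 2 the lowest background of the whole list was also 3.03 and 3.11. The TRPS1 median stood at that floor in these libraries.

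**Figure D2:**
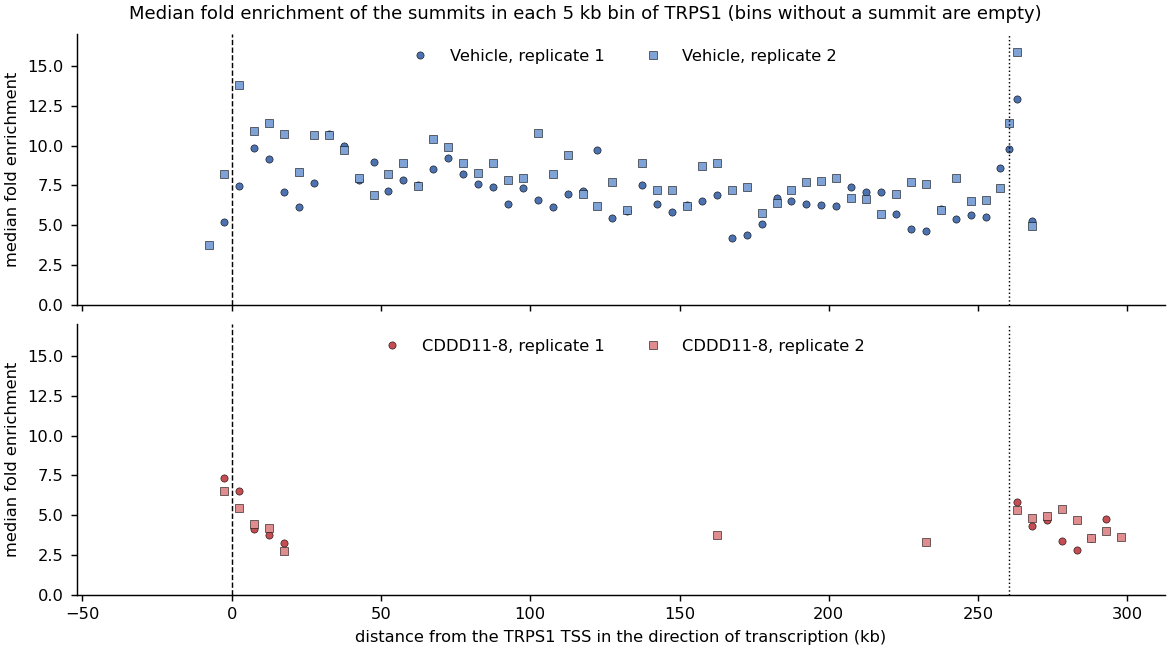
Median fold enrichment of the summits in each 5 kb bin (y axis, linear) against the distance from the TRPS1 TSS in kb (x axis), with vehicle libraries above and CDDD11-8 libraries below, a dashed line at the TSS and a dotted line at the TES. Values are comparable within a library only. The bin medians range from 4.16 to 10.7 in vehicle replicate 1 and from 5.68 to 13.8 in vehicle replicate 2 along the gene, and bins without a summit have no point.

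With CDDD11-8, RNAPII remained at the TRPS1 promoter and over the following stretch of intron 1. A region lay over the TSS in every library. Its length was 174.854 and 41.419 kb with vehicle, compared with 11.013 and 11.127 kb after CDDD11-8. Downstream of the TSS it reached 170.313 and 36.65 kb with vehicle, against 6.375 and 8.111 kb with CDDD11-8. Upstream of the TSS it reached 4.54, 4.768, 4.637 and 3.015 kb. A further region lay at -4.496 to -3.314 kb from the TSS (negative is upstream) in CDDD11-8 replicate 2. Another lay at -5.373 to -4.969 kb in vehicle replicate 2. Upstream coverage thus ended at similar distances in the vehicle and CDDD11-8 libraries, while the downstream edges lay far apart.

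Coverage thinned over the next bins with CDDD11-8. From the TSS to 5 kb it was 100% in both CDDD11-8 libraries. From 5 to 10 kb it was 77.9% in replicate 1 and 80.3% in replicate 2, from 10 to 15 kb it was 29.98% and 35.4%, and from 15 to 20 kb it was 7.58% and 12.2%. The last region of this 5′ group ended 17.841 kb from the TSS in replicate 1 and 18.979 kb in replicate 2. Beyond 20 kb and up to the TES, CDDD11-8 replicate 1 held 0 summits and 0% coverage, and replicate 2 held 2 regions with 0.291% coverage, against 99.8% and 98.5% with vehicle. These 2 regions were 390 bp long at 160.3 kb from the TSS, within 2 kb of the annotated start of TRPS1-AS1, and 310 bp long at 230.0 kb. Without read totals, the absence of a region in CDDD11-8 says that no enrichment was called, not that RNAPII was absent.

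By fold enrichment, the promoter stood above the other called summits of the gene body by more within the CDDD11-8 libraries than within the vehicle libraries. Within 2 kb of the TSS the highest fold enrichment reached 9.06 and 20.8 for vehicle, and 20.1 and 14.2 for CDDD11-8. The highest value elsewhere in the gene body was 16.97 and 19.1 with vehicle, and 10.3 and 7.89 with CDDD11-8. The 19.1 lay past the TES, and both CDDD11-8 values lay in the region over the TSS, beyond 2 kb from the TSS. The ratio of the promoter to the highest of these other summits was therefore 0.534 and 1.09 with vehicle, compared with 1.94 and 1.80 after CDDD11-8. These maxima were taken over 410 and 362 other summits with vehicle but over 19 and 17 with CDDD11-8. With CDDD11-8 the other summits lay within 20 kb of the TSS or past the TES, apart from 2 in replicate 2. The stretch without called regions added nothing to the ratios. Against the median of the other summits, the promoter stood at 1.34 and 2.62 times with vehicle and at 4.82 and 3.36 times with CDDD11-8. It exceeded that median in every library. By pileup the vehicle promoter also stood well above the gene body. The highest pileup within 2 kb of the TSS was 173 and 143 with vehicle, against gene body medians of 37 and 34. With CDDD11-8 it was a scaled 113.62 and 123.09, against 22.65 and 17.31. The treatments thus lay closer together in replicate 1 by pileup than by fold enrichment.

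**Figure D3:**
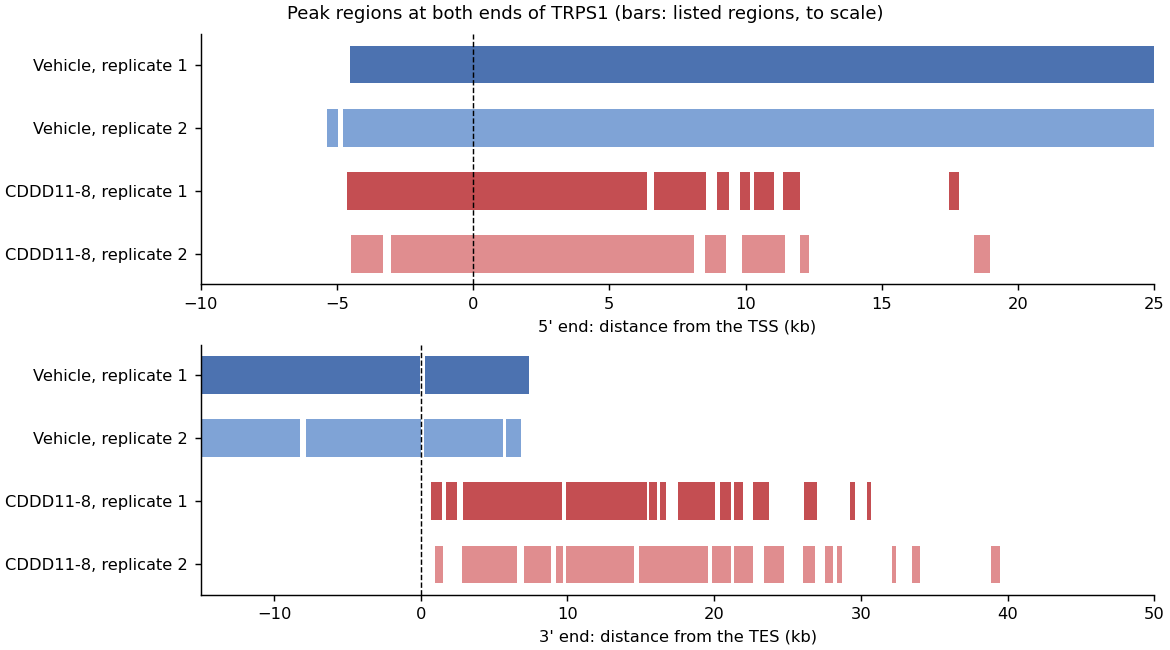
Listed RNAPII regions (bars, to scale) in each library around the TSS (upper panel) and the TES (lower panel) of TRPS1, with distance in kb in the direction of transcription on the x axis. With CDDD11-8 the last bar of the 5′ group ends at 17.841 and 18.979 kb, and bars reach 30.7 and 39.5 kb past the TES, against 7.40 and 6.85 kb with vehicle.

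The annotation lists 12 TRPS1 transcripts, whose starts fall into 6 groups when starts within 500 bp are joined. The main group of 7 transcripts spans 0.994 kb from the TSS of TRPS1-203 and had a region in every library, with a highest fold enrichment of 7.88 and 20.8 with vehicle and 20.1 and 9.55 with CDDD11-8. TRPS1-210 starts 0.508 kb further upstream and also lay inside a region in every library, with 9.06 and 18.0 with vehicle, and with 14.3 and 14.2 after CDDD11-8. By fold enrichment TRPS1-210 stood above the main group in vehicle replicate 1 and CDDD11-8 replicate 2 and below it in the other libraries. By pileup the main group stood above TRPS1-210 in all 4 libraries, with 173 against 125 and 143 against 86 fragments with vehicle and a scaled 113.62 against 84.66 and 123.09 against 95.2 with CDDD11-8.

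The starts inside the gene behaved like the gene body around them. TRPS1-202, 7.297 kb after the TSS, had a region in every library, with a fold enrichment of 11.6 and 14.1 with vehicle and 4.50 and 4.93 with CDDD11-8. TRPS1-208 at 48.905 kb and TRPS1-207 at 176.754 kb were inside a region in both vehicle libraries and in none of the CDDD11-8 libraries. TRPS1-208 had no summit within 300 bp in either vehicle library, and TRPS1-207 had summits of 4.35 and 4.93 there, below the gene body medians of 6.77 and 7.94. TRPS1-204 starts 140.697 kb upstream and had no region in any library. An isolated stretch between the starts of TRPS1-204 and TRPS1-210, 108 to 112 kb upstream of the TSS, was called in all 4 libraries. It spanned 3.823 and 3.679 kb with vehicle and 1.915 and 2.355 kb with CDDD11-8, and its highest fold enrichment was 13.4, 8.77, 4.39 and 4.33 in the order vehicle replicates 1 and 2 and CDDD11-8 replicates 1 and 2.

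In the termination zone the order of the groups was the opposite of that in the gene body. Of the 50 kb after the TES, regions covered 7.109 kb in vehicle replicate 1, 6.391 kb in vehicle replicate 2, 21.262 kb in CDDD11-8 replicate 1 and 23.078 kb in CDDD11-8 replicate 2. Both CDDD11-8 libraries lay above both vehicle libraries. As a percent, the vehicle mean was 13.5% ± 1.02 (SD, n = 2) and the CDDD11-8 mean 44.3% ± 2.57 (SD, n = 2), which gives a difference of 30.8 percentage points. The last covered base lay 7.40 and 6.85 kb past the TES with vehicle, and 30.7 and 39.5 kb past it with CDDD11-8.

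The CDDD11-8 coverage lay further from the TES than the vehicle coverage did. In the 5 kb next to the TES, coverage was 94.2% and 95.8% with vehicle and lower with CDDD11-8, at 74.0% and 54.1%. From 5 to 10 kb it was 48.0% and 32.0% with vehicle and 94.7% and 79.4% with CDDD11-8. From 10 to 20 kb it was 0% in both vehicle libraries and stood at 87.5% and 94.1% with CDDD11-8, and from 20 to 30 kb it was 0% against 37.6% and 55.7%. No library had coverage from 40 to 50 kb. The last 20 kb of the gene before the TES were covered to 99.9% and 97.9% with vehicle and to 0% in both CDDD11-8 libraries, whose regions began again 0.673 and 0.987 kb past the TES.

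The termination zone was also one of the strongest parts of TRPS1 with vehicle, and of middling strength with CDDD11-8. The 50 kb after the TES held 10 and 9 summits with vehicle, with a median fold enrichment of 9.50 and 15.1, at the 96.6th and 98.8th percentile of their lists. They held 38 and 37 summits with CDDD11-8, with a median of 4.18 and 4.69, at the 42.8th and 52.9th percentile. The median −log10 q-value of these summits was 29.4 and 52.8 with vehicle and 6.19 and 7.86 with CDDD11-8, against a list minimum of 2.00 in each library. Ranked within its own list, the CDDD11-8 stretch was thus long and of middling enrichment, and the vehicle stretch short and of high enrichment. The q-values depend on depth, which is unknown, and give no measure of the difference between libraries. When only regions reaching 5 on the −log10 q-value scale were kept, the difference narrowed from 30.8 to 24.4 percentage points.

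Among the 624 genes of 200 to 300 kb, TRPS1 ranked 1 by vehicle gene body coverage and 1 by the fall with CDDD11-8. These genes were mostly bare: their median coverage was 0.127%, 0.157%, 0.272% and 0.207% in vehicle replicates 1 and 2 and CDDD11-8 replicates 1 and 2, and 257 had no vehicle coverage at all. In 125 of the 624 (20%) both CDDD11-8 libraries lay below both vehicle libraries, and among all 19794 protein-coding genes the share was 27.2%. TRPS1 belongs to these by the values it was chosen on. With CDDD11-8, its remaining coverage still ranked 15 and 8 of 624, and the downstream reach of the region over its TSS ranked 4 of 304 and 2 of 290 genes with such a region, where the medians were 1937 and 1813.5 bp.

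The next genes by vehicle coverage and by its fall were the same 4 in the same order. ASPH, which encodes an aspartyl/asparaginyl hydroxylase, was covered to 70.2% and 71.2% with vehicle and 4.34% and 4.45% with CDDD11-8. GALNT10, a glycosyltransferase of mucin-type O-glycosylation, was covered to 56.4% and 52.7% with vehicle and 5.01% and 3.87% with CDDD11-8. DENND1B, an exchange factor for Rab GTPases, stood at 35.4% and 51.2% against 1.31% and 1.25%. EHMT1, a histone H3 lysine methyltransferase, stood at 57.5% and 28.7% against 20.6% and 3.44%, with replicates that lay far apart. The step from TRPS1 to ASPH in mean vehicle coverage was from 99.1% to 70.7%, with SDs of 0.838 and 0.710 (n = 2). Both genes stand at the top of a ranking on these values.

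**Figure D4:**
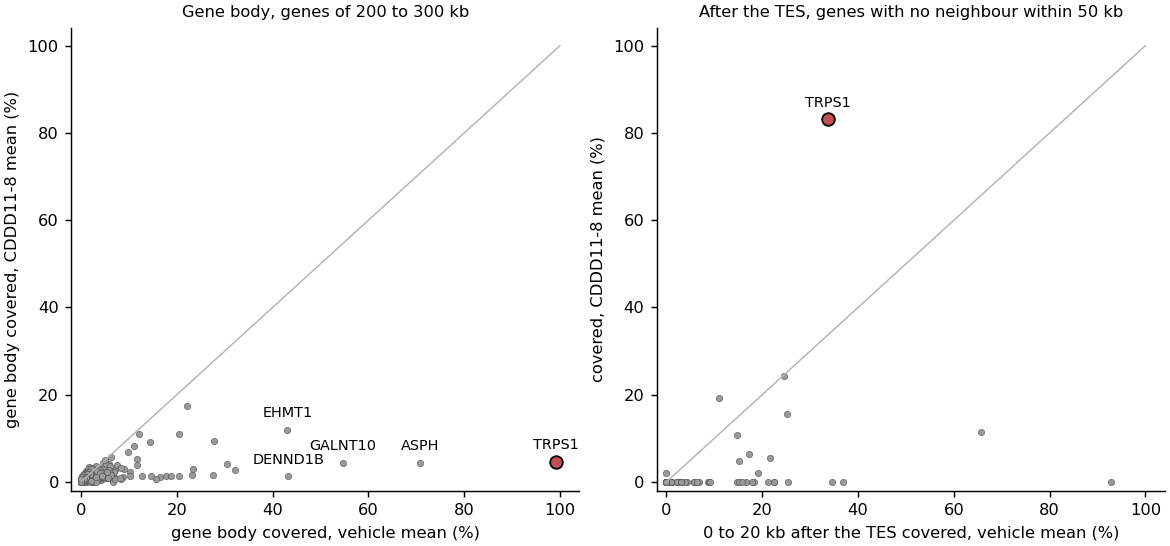
Left, mean gene body coverage with CDDD11-8 against that with vehicle (percent, n = 2 libraries each) for 624 genes of 200 to 300 kb. Right, the same for the 20 kb after the TES in the 268 of them without another protein-coding gene within 50 kb after the TES. Each point is a gene and the line marks equal values. TRPS1 (red) lies far below the line for the gene body, at 99.1% and 4.69%, and far above it after the TES, at 33.8% and 83.2%.

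Higher coverage after the TES with CDDD11-8 was uncommon in genes of this length. Of the 624, 268 have no other protein-coding gene within 50 kb after the TES, so that coverage there is less likely to belong to a neighbour. In the 20 kb after the TES, TRPS1 was covered to 35.5% and 32.0% with vehicle and 85.9% and 80.4% with CDDD11-8. Both CDDD11-8 libraries lay above both vehicle libraries in 2 of the 268 genes (0.746%), TRPS1 and SRGAP3, and below them in 30. TRPS1 ranked 1 by this difference, with 49.4 percentage points against 8.32 for SRGAP3, which was named after its values were seen. In 220 of the 268 the difference was 0 because no library had coverage there, so the low share and the rank come from mostly bare genes. Among 24 well-covered genes of at least 50 kb, chosen after seeing the data and described at the end, 6 were higher and 16 lower. TRPS1 ranked 2 there by this difference.

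The profile most like that of TRPS1, over 20 equal bins from TSS to TES in each of the 4 libraries, was sought among 3321 other genes of at least 100 kb. The mean absolute difference in percent covered over these 80 values was 6.12 percentage points for BRWD1, a bromodomain protein gene of 129.644 kb. Among the others of the 5 most alike it was 12.1 for CNOT1, a scaffold of the CCR4-NOT deadenylase complex, 13.5 for NRIP1, a nuclear receptor corepressor, and 14.8 for RFX7, a transcription factor. The median over all genes compared was 51.6 percentage points. BRWD1 was covered to 92.3% and 87.5% with vehicle and 6.31% and 6.86% with CDDD11-8.

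Other luminal lineage genes were described beside TRPS1. Of the 19 others on the list, 9 had lower gene body coverage in both CDDD11-8 libraries and 0 had higher, beside 27.2% lower and 14.7% higher over all 19794 protein-coding genes. The median difference on the list was -6.99 percentage points, against 0 over all genes. Many genes have no RNAPII peak, and among the 11050 with a promoter peak in any library 42.8% were lower and 22.3% higher, with a median difference of -1.45 percentage points. GRHL2, an epithelial transcription factor gene of 177.288 kb, was covered to 57.1% and 45.5% with vehicle and 6.50% and 6.11% with CDDD11-8. TFAP2B, a transcription factor gene of 28.749 kb, had 100% coverage in each vehicle library, against 62.2% and 49.6% with CDDD11-8. GATA3, the luminal GATA factor gene of 20.511 kb, was covered to 100% in all 4 libraries. Gene length differed widely on the list, from 4.03 to 412.779 kb. GATA3 is little longer than the 5′ stretch called on TRPS1 with CDDD11-8, which ended at 17.841 and 18.979 kb. Its percent covered is therefore not a like measure to that of TRPS1, and the part of gene length was not tested. ESR1, PGR and ELF5 had no gene body coverage in any library.

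TRPS1 carries a GATA-type zinc finger, and as a repressor it works with corepressor complexes. Of the 6 GATA genes, 0 had lower coverage in both CDDD11-8 libraries, beside 27.2% of all genes. Of these 6, 3 had no promoter peak in any library, beside 8744 of all 19794 genes. GATA4 and GATA6 had higher coverage in both, beside 14.7% of all genes, with at most 2.84% covered in any library. Of 17 genes for subunits of NuRD, CoREST and CtBP complexes, 11 were lower in both CDDD11-8 libraries and HDAC2 was higher, beside the same 27.2% and 14.7% of all genes. Of the 17, 15 had a promoter peak in all 4 libraries. Among genes with a promoter peak in any library, 42.8% were lower and 22.3% higher. The median difference of the 17 was -11.3 percentage points, against 0 over all genes and -1.45 over those with a promoter peak. RBBP4, a histone-binding subunit, was covered to 92.3% and 81.8% with vehicle and 8.77% and 6.54% with CDDD11-8. CHD4, the NuRD remodelling ATPase, stood at 87.7% and 76.3% against 21.4% and 22.5%. CTBP1, a corepressor of the CtBP complex, stood at 45.8% and 64.0% against 83.0% and 57.9%, so its groups overlapped.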

How the data were processed

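RNAPII ChIP-seq was measured in MDA-MB-453 cells given vehicle or CDDD11-8 at 600 nM for 4 h (n = 2 libraries each). Alignment by the authors used Bowtie 2 and GRCh37, and MACS2 called the peaks of each library against its input. Tool versions are not given in the sources used here. The authors' pileup is a signal of overlapping fragments, their fold enrichment a ratio of pileup to local background, and the deposited p-value and q-value are on the −log10 scale. Positions and lengths are in bp as deposited. Weak enrichment is called more readily where a library is deeper or was scaled less, and coverage therefore depends on depth and scaling, and depth is unknown.

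Summits sharing a region were joined. Genes came from GENCODE release 44 on GRCh37, with the longest protein-coding isoform. Local background was computed as (pileup + 1)/fold enrichment − 1, the form in which MACS2 builds the ratio. Values were compared by group mean, SD and rank, with no test. TRPS1 and the gene lists were chosen with earlier results of these data known. Genes named are TRPS1, its neighbours, the top 5 of 200 to 300 kb by coverage and by fall, the 5 most alike profiles and list members of at least 20 kb, apart from those said to be named after their values were seen, and some genes that meet this rule are not reported here. The coverage measure was tested on simulated regions planted at gene bodies. Alternatives are given in the closing section. Python 3.11.15, numpy 2.4.6, pandas 2.3.3 and matplotlib 3.10.9 were used.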

Additional observations from a re-analysis of the deposited data

How the results depend on the processing

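TRPS1 stayed at rank 1 of the genes of 200 to 300 kb by vehicle coverage and by its fall under each alternative run within such length classes, that is a minimum of 5 for the −log10 q-value, an equal number of regions per list, joined regions, stretches around summits, a shorter gene body, genes of 150 to 400 kb, genes with a promoter peak and each replicate left out. The difference in gene body coverage, -94.4 percentage points, was -95.3 at the q-value minimum, -95.6 for a body that began 2 kb past the TSS and stopped at the TES and -65.5 with 250 bp around summits. The difference over the 50 kb after the TES, 30.8 points, was 24.4 at the q-value minimum, 37.7 with regions within 1 kb joined and 26.3 around summits. The mean downstream reach of the promoter region with CDDD11-8, 7.24 kb, was 12.2 kb when joined and 0.419 kb around summits. The share of genes of 200 to 300 kb lower in both CDDD11-8 libraries, 20%, was 9.13% with equal numbers of regions. The cause of these shifts was not tested. No value reversed.

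With each replicate left out, these ranged from -95.0 to -93.9 points for the gene body, 29.0 to 32.7 points after the TES, 6.38 to 8.11 kb for the reach and 20.5% to 26.3% for the share, and the ranks were 1 to 1. With the replicate number as a block, the mean of the paired differences for the gene body was -94.4 points. The numbers mark no shared passage across treatments in the labels, and with 2 pairs the pairing was not checked further. In a set chosen after seeing the data, of 24 genes of at least 50 kb with over 50% vehicle coverage and no protein-coding gene within 50 kb after the TES, TRPS1 ranked 2 by vehicle coverage. Depth could not be taken from the lists, so a stretch without a region may hold RNAPII below the calling threshold.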

Other observations

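The stretch after the TES was also examined in other well-covered genes, in a set chosen after seeing the data. Of 99 genes of at least 50 kb with over 50% of the gene body covered in both vehicle libraries, 24 have no other protein-coding gene within 50 kb after the TES. In the 20 kb after the TES, both CDDD11-8 libraries lay above both vehicle libraries in 6 of the 24, below them in 16 and in neither order in 2. By the same measure, 2 of the 268 genes in the length class of TRPS1 (0.746%) were higher and 30 lower. In 220 of those 268 no library had coverage there, so they are not a like background. No share over all protein-coding genes is given for this measure. Whether 6 and 16 of 24 are unusual was not tested. Among the 24, TRPS1 ranked 2 by the difference, with 49.4 percentage points. CSNK1A1, which encodes casein kinase 1 alpha, came before it with 52.5 points, from 49.9% and 41.5% with vehicle to 99.2% and 97.1% with CDDD11-8. WAC, a gene for a WW domain adaptor protein, stood at 19.1% and 20.03% against 47.4% and 53.2%. HNRNPC, RXRA and SP3 were the others above.

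In the 16 genes below, the coverage after the TES was lower with CDDD11-8. Their mean gene body coverage was lower too, but so was that of the 6 genes above. The set was chosen for high gene body coverage with vehicle, which favours a lower value with CDDD11-8. The gene body therefore cannot serve as a parallel to the stretch after the TES. SPOPL, a gene for a ubiquitin ligase adaptor with 99.0% and 96.2% of its body covered with vehicle, stood at 100% and 96.8% after the TES against 0% in both CDDD11-8 libraries. These genes were named after their values were seen.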
